A study of Mus musculus with 2 samples.

Results

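The genes described here are the 63 genes of the deposited annotation whose symbols name a semaphorin, plexin, neuropilin, ephrin, Eph receptor, netrin, Slit or Robo, out of 31053 genes in all. Members of these families were taken by symbol alone, but the gene set was chosen with earlier results of these data known. They comprise 20 semaphorins, 9 plexins, 2 neuropilins, 8 ephrins, 14 Eph receptors, 3 netrins, 3 Slits and 4 Robo receptors. The single group of the study is the mandibular incisor of untreated C57BL/6 mice at 4 weeks of age, with no genotype other than the strain, no treatment and no control group. Per the labels, jaw bone was cut off and the proximal region severed, without saying which portion was used, and pulp with its epithelium was dissociated with type I collagenase and barcoded in droplets with 3′ chemistry. The labels call the tissue dental mesenchyme, but keratin-expressing epithelium, leukocytes, red cell precursors and vessels were in the suspension too. The 2 sample titles differ only in the sequencing lane and 1 matrix holds them, so the data are 1 sample and no comparison below has a replicate or a test. Neither the number nor the sex of the animals is given in the labels.

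These families carry short-range and secreted cues between cells. Secreted class 3 semaphorins bind neuropilins, which signal through plexins, whereas membrane-bound semaphorins mostly bind plexins directly. Ephrins and Eph receptors are both held on cell membranes and signal where cells touch, and their interplay sets tissue boundaries and separates arteries from veins. Netrins signal through DCC, neogenin and UNC5 receptors, and Slits through Robo receptors. In the tooth these cues are known for guiding nerve fibres and vessels, and the continuously growing mouse incisor renews its ameloblasts and odontoblasts from stem cells throughout life.

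Values are counts of unique molecular identifiers (UMIs, one per captured RNA molecule) summed over the cells of a class and given per 1000000 UMIs of that class (CPM). A gene was measured in a comparison where both sides together gave at least 30 UMIs, and it is called higher or lower at a difference of at least 2-fold. Levels are not divided by transcript length, so levels are compared between cells for 1 gene and not between genes. The range after a level or a log2 ratio is its exact 95% interval, which covers counting error only and says nothing of differences between animals. After removal of likely doublets 4536 cells remained, with 34612070 UMIs and a median of 5785 per cell. Clusters were made without the 63 genes and fell into 2206 mesenchymal-like, 768 epithelial-like, 653 macrophage- or monocyte-like, 206 B-cell-like, 188 neutrophil-like, 162 dendritic-like, 151 T- or NK-like, 90 erythroid-like and 74 endothelial-like cells, with 38 cells unnamed. All 11 fixed endothelial markers were raised in the endothelial-like cells. Of 10 epithelial markers the 4 epithelial-like clusters raised between 7 and 10, the largest lacking Epcam, Krt17 and Krt18 among those raised.

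The 63 genes gave 35050 UMIs, 0.101% of all UMIs in these cells. Their share was largest in endothelial-like cells (0.257%), near 0.11% in both epithelial-like (0.113%) and mesenchymal-like cells (0.110%), lower in macrophage- or monocyte-like cells (0.0582%), and lowest in erythroid-like cells (0.0151%). Of the 63, 55 had at least 30 UMIs. The other 8 were Robo3 (14 UMIs), Epha5 (11), Plxnb3 (10), Sema5b (3), Epha10 (2), Slit1 (2), Epha8 (1) and Epha6 (0), and they are not described further.

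Each of the 55 genes had a class in which its level was highest. That class was endothelial for 19 genes, epithelial for 15, mesenchymal for 15, neutrophil for 4, B cell for 1 and macrophage or monocyte for 1. For 14 of the 19 endothelial, 10 of the 15 epithelial and 8 of the 15 mesenchymal genes the counting interval did not overlap that of the next class. The same was not counted over all genes, so these numbers do not show that guidance genes lean to any class. Droplets of 1 to 20 UMIs, which hold free RNA, contained these genes as well, for example 40.3 CPM of Plxnb2, 23.3 CPM of Nrp1 and 12.5 CPM of Epha3. A cell's counts can include this free RNA, and its part in low levels was not tested.

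**Figure D1:**
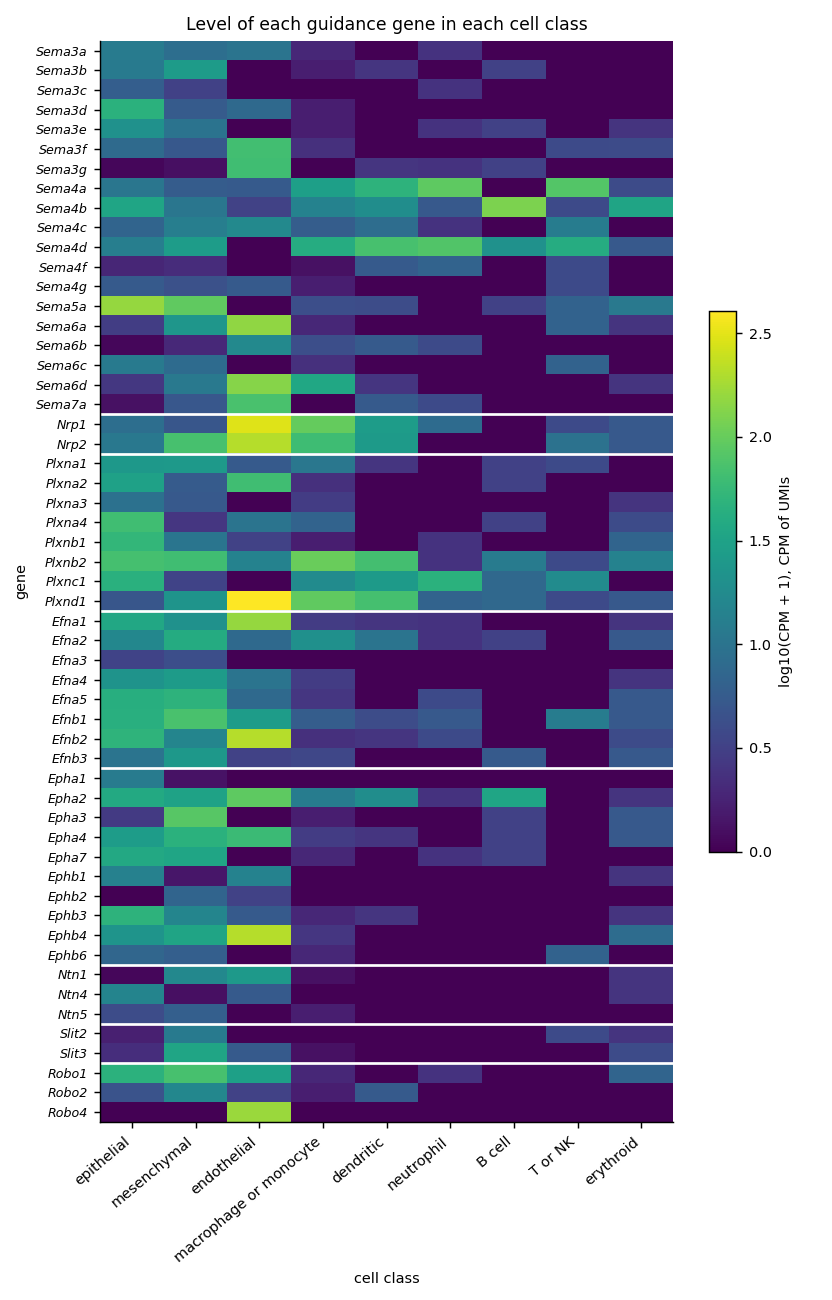
Levels of the 55 guidance genes with at least 30 UMIs (rows, by family, white lines between families) in the 9 named cell classes (columns), coloured by log10(CPM + 1). The endothelial column holds the highest level of 19 genes, and most rows are dark in the lymphoid and erythroid columns, where a single UMI already equals 1.47 CPM (erythroid) to 2.84 CPM (T or NK).

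Endothelial-like cells, which line vessels, had higher levels of both neuropilins, an ephrin-Eph pair and Robo4 than other cells. Of 8 plexins measured, 2 were higher and 5 lower. Among the 55 genes, 17 were higher and 20 lower than in all other cells, where 16.8% and 15.3% of 14000 measured genes were. Of these, 17 and 15 also had an interval on one side of 0, as did 13.5% and 9.73% of all genes. The median log2 ratio of the 55 genes was −1.23 when the 16 genes with no UMI in these cells are ranked lowest, against −0.17 over all genes ranked the same way. With such genes set at the bound that 3 UMIs allow, the medians had the other sign, 0.26 and 0.25.

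The leading gene was Robo4, the Robo receptor known from vessels, with 72 UMIs in the 74 cells and 0 UMIs in the 4462 others, an endothelial level of 162 CPM (126 to 204). Measured against a floor of 3 UMIs over those others, its log2 ratio was at least 10.85. Sema3g, a secreted semaphorin that binds neuropilin-2, stood at 62.8 CPM against 0.263 in the other cells (log2 ratio 7.90, 6.77 to 9.17). Sema7a, which is tethered to the membrane by a lipid anchor, was also higher, at 71.8 CPM against 2.37 (log2 ratio 4.92, 4.28 to 5.53).

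The promoters of these 3 genes are printed because they carry the steepest endothelial ratios in this set. Each run is from RefSeq on GRCm38.p6, 250 bases before to 50 after the start site, 5′ to 3′ in the direction of the gene. Robo4 is at chr9:37401722-37402021 on the plus strand, Sema3g at chr14:31217623-31217922 on the plus strand and Sema7a at chr9:57939862-57940161 on the plus strand. Capitals mark matches, on either strand, to an ETS core (AGGAAG) or a GC box (GGGCGG), and no match to a RUNX (TGTGGT), homeodomain (TAATTA) or TATA box (TATAAA) motif was found.
Robo4: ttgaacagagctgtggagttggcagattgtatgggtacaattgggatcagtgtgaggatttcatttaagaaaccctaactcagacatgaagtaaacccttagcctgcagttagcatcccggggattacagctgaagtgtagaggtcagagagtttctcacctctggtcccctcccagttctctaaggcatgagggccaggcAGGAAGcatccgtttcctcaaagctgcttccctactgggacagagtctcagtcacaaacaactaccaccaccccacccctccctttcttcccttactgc
Sema3g: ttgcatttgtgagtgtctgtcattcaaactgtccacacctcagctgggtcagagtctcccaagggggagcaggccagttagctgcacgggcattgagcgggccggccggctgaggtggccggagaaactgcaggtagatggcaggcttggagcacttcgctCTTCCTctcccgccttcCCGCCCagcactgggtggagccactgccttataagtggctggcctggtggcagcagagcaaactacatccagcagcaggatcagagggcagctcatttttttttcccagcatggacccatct
Sema7a: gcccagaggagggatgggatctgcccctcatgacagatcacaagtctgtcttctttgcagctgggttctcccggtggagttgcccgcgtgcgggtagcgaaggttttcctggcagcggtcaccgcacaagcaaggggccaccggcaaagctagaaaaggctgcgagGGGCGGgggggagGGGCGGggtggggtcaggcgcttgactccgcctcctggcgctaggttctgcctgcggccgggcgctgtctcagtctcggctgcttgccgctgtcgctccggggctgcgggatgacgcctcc
Robo4 holds 1 ETS core at −49 relative to the start site, Sema3g 1 ETS core at −89 and 1 GC box at −72, and Sema7a 2 GC boxes at −84 and −71. Of the 32851 RefSeq promoters of this length 35.4% hold an ETS core, 35.7% a GC box, 16.8% a RUNX, 5.29% a homeodomain and 13.6% a TATA box motif, so these matches are descriptions only.

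Both neuropilins were higher in endothelial-like cells. Nrp1, a co-receptor for class 3 semaphorins and for vascular endothelial growth factor, reached 303 CPM (254 to 359) against 14.0 CPM in other cells (log2 ratio 4.43, 4.14 to 4.71). Nrp2 was at 204 CPM against 46.0 (log2 ratio 2.15, 1.83 to 2.46). With every cell thinned to 2000 UMIs, 42.4% of 66 endothelial-like cells held a Nrp1 UMI, against 3.61% of 83 erythroid-like cells, which should lack it. Unthinned shares were 78.4% and 3.33%, at median depths of 4495.5 and 6566.5 UMIs.

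Plxnd1, the plexin that receives Sema3e and pairs with neuropilins in vessels, was at 404 CPM (347 to 468) against 22.3 CPM (log2 ratio 4.18, 3.94 to 4.42). Of the 8 plexins measured only Plxnd1 and Plxna2 were higher. Plxnb2 was lower, at 13.5 CPM against 64.0 (log2 ratio −2.25, −3.70 to −1.12). Plxnb1, Plxna1 and Plxnc1 were lower at 2-fold too, Plxnc1 with 0 UMIs. For Plxna4 the log2 ratio of −1.16, from 4 UMIs, turned to 0.36 with an equal weight for every cell.

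The remaining semaphorins higher in endothelial-like cells were membrane-bound class 6 members and the secreted Sema3f. Sema6d stood at 135 CPM against 9.10 (log2 ratio 3.89, 3.46 to 4.29), Sema3f at 3.87 and Sema6a at 3.55 on the log2 scale. Sema6b, at 3.98, rests on 7 UMIs. Sema5a lay at the other extreme. It had 3258 UMIs elsewhere and 0 in endothelial-like cells, so that its log2 ratio was at most −3.82.

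Efnb2, a membrane ligand known as a marker of arteries, and Ephb4, its receptor and a known marker of veins, were both higher in these cells. Efnb2 was at 209 CPM against 22.2 (log2 ratio 3.24, 2.91 to 3.55) and Ephb4 at 209 CPM against 23.6 (log2 ratio 3.15, 2.82 to 3.46). Each gene had 93 UMIs. Of the 74 cells, 14 held an Efnb2 UMI alone, 22 an Ephb4 UMI alone, 22 both and 16 neither. The product of the shares of cells with each gene gives 21.4 cells with both. A cell without a UMI may still express the gene at this depth. Efna1 (2.85) and Epha2 (1.61) were higher as well, as were Ephb1 (1.70, from 6 UMIs) and Ntn1 (1.59, from 11). Epha3, Epha7 and Sema4d had no UMI. Among perivascular markers, 7 of 9 were at 0 in the endothelial-like cells and Mcam, which endothelium also expresses, made up 224 CPM of their summed 227 CPM. Free RNA of other cells was present, with Amelx, the enamel matrix gene of ameloblasts, at 323 CPM, and its part in the low levels was not tested.

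**Figure D2:**
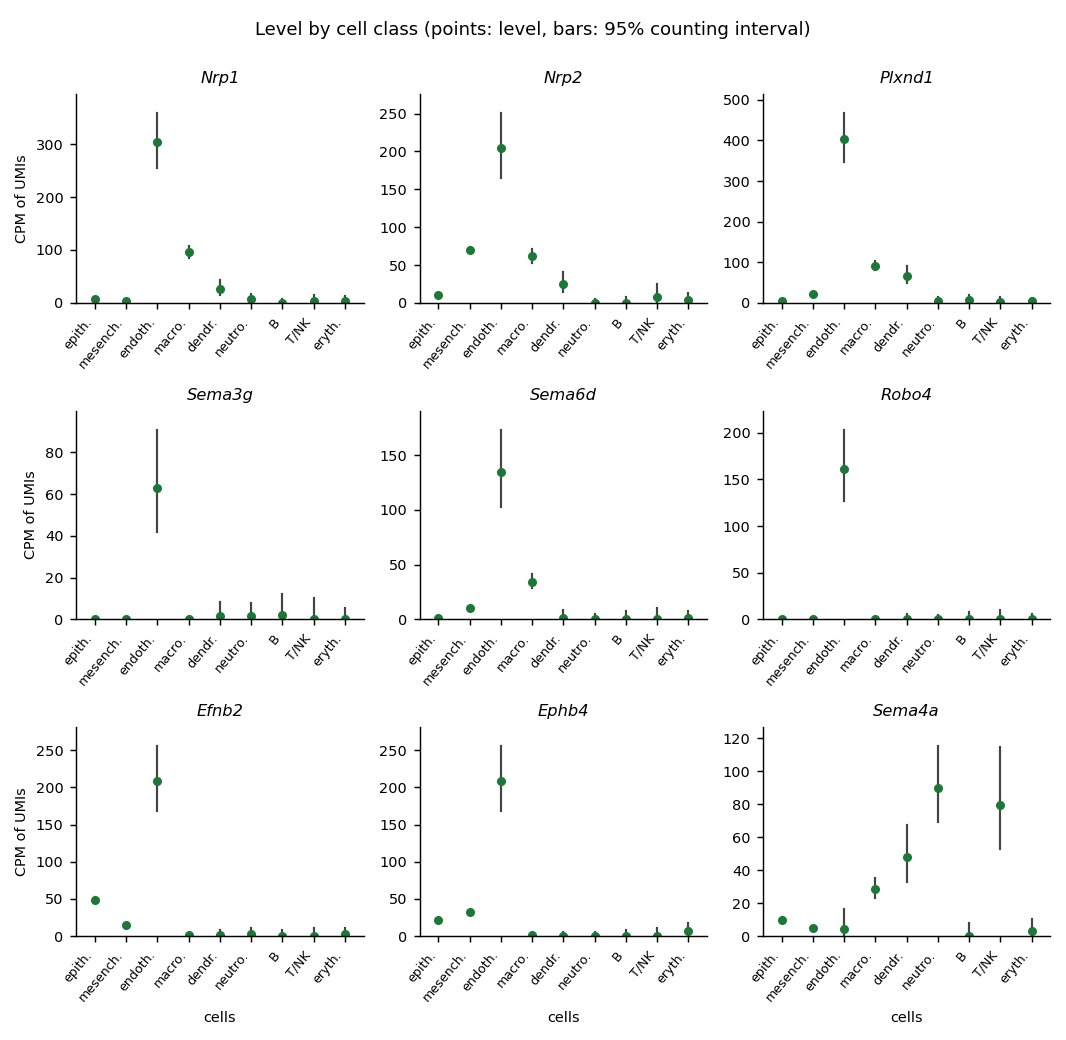
Level in CPM (points) with 95% counting intervals (bars) of 9 guidance genes across the 9 cell classes; each panel has its own axis from 0. Nrp1, Plxnd1 and Sema6d are highest in endothelial-like cells and next in macrophage- or monocyte-like cells, Robo4 is at 0 outside endothelium, and Sema4a is highest in neutrophil- and T- or NK-like cells.

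In each leukocyte class lower genes outnumbered higher ones, as they did over all genes. In macrophage- or monocyte-like cells 5 of 55 were higher and 42 lower than in all other cells, against 15.7% and 29.9% of all genes. The median log2 ratio of the 55 was −3.70, with 10 genes that had no UMI ranked lowest, against −0.37 over all genes. The 5 higher genes were Nrp1 at 95.9 CPM against 10.1 (log2 ratio 3.25, 3.02 to 3.48), Plxnd1 (2.13), Sema6d (2.04), Sema6b (1.71) and Sema4a (1.51). For Sema6b, with 10 UMIs, an equal weight for every cell brought the log2 ratio to 0.92, under 2-fold. Plxnb2, a receptor of class 4 semaphorins, had its highest class level here at 102 CPM (91.4 to 114), though within 2-fold of the level in all other cells. Nrp1 and Plxnd1 UMIs were found together in 77 of 653 cells, Nrp1 alone in 132 and Plxnd1 alone in 130. The product of the shares of cells with each gene gives 66.3 cells with both.

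Class 4 semaphorins, membrane proteins known for roles in immune cells, were among the higher genes in the other leukocytes. Sema4a was higher in neutrophil-like (90.1 CPM against 10.1; log2 ratio 3.15, 2.74 to 3.54), T- or NK-like (79.5 CPM against 11.1; log2 ratio 2.84, 2.24 to 3.40) and dendritic-like cells (47.9 CPM against 11.0; log2 ratio 2.12, 1.55 to 2.64). In B-cell-like cells Sema4a had 0 UMIs, and Sema4b was the higher gene instead (122 CPM against 17.2; log2 ratio 2.83, 2.40 to 3.23). Sema4d was higher in neutrophil-like (1.73) and dendritic-like cells (1.53), and the plexin Plxnc1 in neutrophil-like cells (1.44). Over the 55 genes, 5 were higher and 33 lower in neutrophil-like cells (9.29% and 46.2% of all genes), and 5 and 25 in dendritic-like cells (11.9% and 27.5%). The counts were 2 and 28 in B-cell-like (13.7% and 23.4%), 2 and 25 in T- or NK-like (12.9% and 23.0%) and 0 and 39 in erythroid-like cells (4.56% and 54.5%). Median depth was 1694 UMIs in B-cell-like, 2020 in T- or NK-like and 6566.5 in erythroid-like cells.

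Epithelial-like and mesenchymal-like cells, the tissues that together build the tooth, differed in about as many of these genes in each direction. Of 52 genes measured, 14 were higher in epithelium and 16 lower, against 10.5% and 20.1% of 12922 genes. The median log2 ratio was 0.02 for the 52 genes and −0.29 for all genes. Genes above 1% of UMIs, chiefly Amelx with 15.9% of epithelial UMIs, pull every other epithelial level down. With such genes left out of both totals, 19 of the 52 were higher and 13 lower, and the medians were 0.32 and 0.01. Shares over all genes were not taken with these totals, so the 10.5% and 20.1% do not apply to those counts.

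Plexins leaned to the epithelium, where 4 of 8 were higher and 1 was lower. Plxna4, a receptor for class 6 semaphorins and, with neuropilin-1, for Sema3a, was at 62.7 CPM (57.9 to 67.8) in epithelium and 1.61 CPM (1.08 to 2.32) in mesenchyme (log2 ratio 5.28, 4.75 to 5.87). Plxnc1, the Sema7a receptor, was at 44.1 CPM against 2.33 (log2 ratio 4.24, 3.78 to 4.73). Plxna2 (log2 ratio 2.70, 2.34 to 3.07) and Plxnb1 (log2 ratio 2.49, 2.24 to 2.75) followed. The exception was Plxnd1, which was lower in epithelium (log2 ratio −2.42, −2.93 to −1.95).

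Netrin-4 and 2 Eph receptors had the other steep epithelial ratios. Ntn4, a netrin of basement membranes, was at 13.9 CPM against 0.278 (log2 ratio 5.64, 4.39 to 7.29). Epha1, a receptor of epithelia, was at 11.0 CPM against 0.334 (log2 ratio 5.05, 3.88 to 6.53), and Ephb1 at 13.1 CPM against 0.445 (log2 ratio 4.88, 3.86 to 6.12). Sema3d, a secreted semaphorin, was higher at 44.8 CPM against 4.61 (log2 ratio 3.28, 2.94 to 3.63). Epithelial levels of Sema4b, Efnb2, Ephb3, Sema3c and Sema3e exceeded the mesenchymal ones by log2 ratios between 1.14 and 1.78, and that of Sema4a by 1.00, which came under 2-fold (0.97, 0.93 and 0.89) with a mitochondrial limit of 10%, with an equal weight for every cell and without 229 mesenchymal cells led by Notum and Plac8.

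On the mesenchymal side stood both measured Slits and the receptor Epha3. Slit3 was at 1.18 CPM against 33.5 (log2 ratio −4.82, −5.78 to −4.01) and Slit2 at 0.69 CPM against 10.5 (log2 ratio −3.93, −5.26 to −2.86), epithelium first. Their receptors were shared more evenly, Robo1 at 46.6 CPM (42.5 to 51.0) in epithelium and 69.6 CPM (65.8 to 73.6) in mesenchyme, and Robo2 lower in epithelium by 2.05 on the log2 scale. Epha3, a receptor for A-type ephrins, was at 1.77 CPM against 84.4 (log2 ratio −5.57, −6.33 to −4.91). Ephb2 had 0 epithelial and 106 mesenchymal UMIs, a log2 ratio of at most −4.32. Nrp2 was at 9.96 CPM against 69.9 (log2 ratio −2.81, −3.12 to −2.52). Sema7a (−3.78), Sema6a (−3.52) and Sema6d (−2.62) were lower in epithelium too. The epithelial levels of Epha3 and Slit3 were below those of free-RNA droplets (12.5 and 16.7 CPM).

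Of 8 ephrins, the ligands of Eph receptors, 1 was higher in epithelium (Efnb2), 2 were lower (Efna2 and Efnb3) and 5 stayed within 2-fold, shares near the 10.5% and 20.1% of all genes. Efna5, for example, was at 42.1 CPM (38.2 to 46.3) and 47.7 CPM (44.6 to 51.0). Sema5a, which had the largest UMI total of the 63 genes (3258), was also within 2-fold, at 156 CPM (148 to 164) in epithelium and 92.1 CPM (87.7 to 96.6) in mesenchyme.

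**Figure D3:**
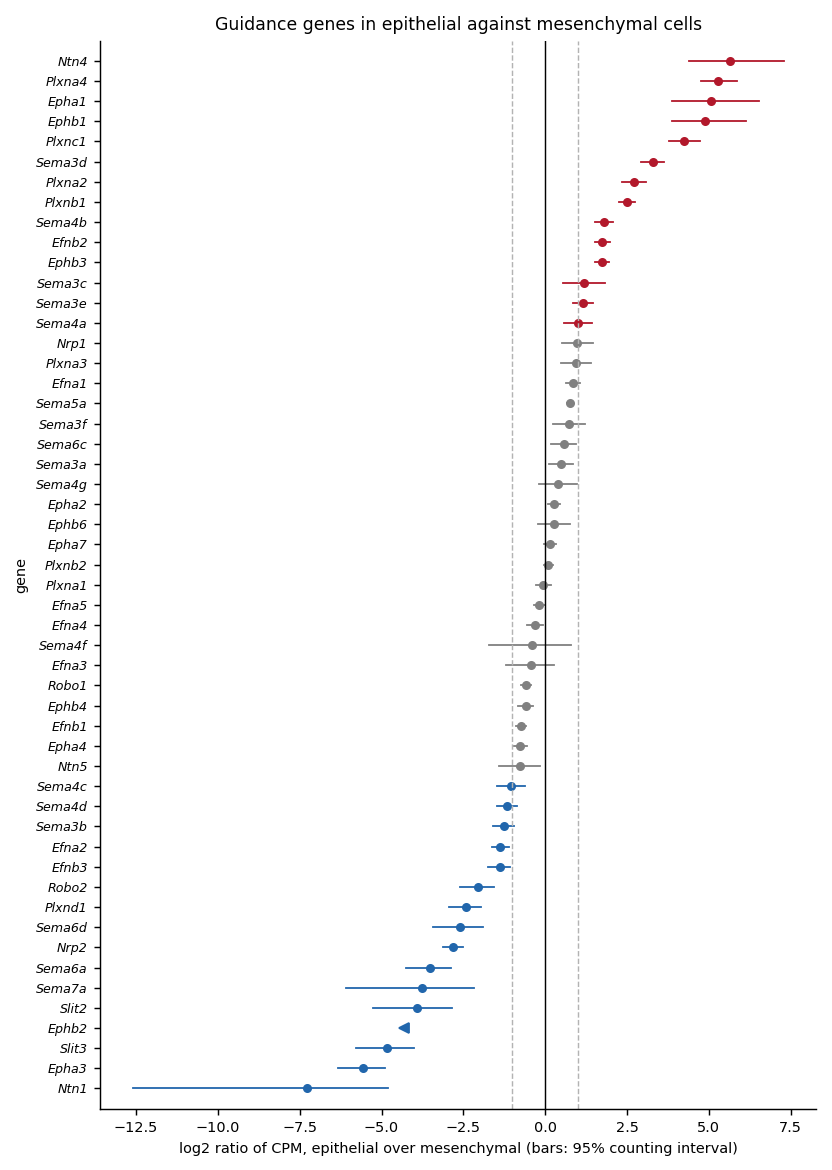
Log2 ratio of CPM, epithelial-like over mesenchymal-like cells (x axis), for the 52 measured guidance genes (y axis), with 95% counting intervals; red and blue mark genes past 2-fold (dashed lines), and the arrowhead marks Ephb2, whose value is an upper bound. The 14 red genes include 4 plexins, and the 16 blue genes include Slit2, Slit3, Epha3 and Nrp2.

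Within the mesenchyme, 24 of the 57 calls of a higher gene, summed over 9 clusters, came from 1 cluster. It comprised 380 cells led by Igf1, Ogn and Acta2 and carried 5 of 9 fixed dental follicle markers (the follicle is the connective tissue around the tooth). Guidance genes made up 0.240% of its UMIs, against 0.0740% to 0.137% in the other 8 mesenchymal clusters. Of 47 genes measured there, 24 were higher than in the other 1826 mesenchymal cells and 10 lower, where 15.3% and 10.0% of 12061 genes were. Over all genes, too, this cluster had the largest share of higher calls, against 1.92% to 9.91% in the other 8. The median log2 ratio was 1.16 for the 47 genes and 0.09 for all genes.

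In this follicle-like cluster 7 of 8 Eph receptors and 3 of 8 ephrins were higher. Epha3 was at 500.1 CPM (474 to 527), against 10.7 CPM in the other mesenchymal cells (log2 ratio 5.55, 5.32 to 5.79). No other mesenchymal cluster exceeded 16.4 CPM. Its promoter, at chr16:63864126-63864425 on the minus strand, is printed because 1355 of the 1518 mesenchymal UMIs of Epha3 lay in this cluster, and it holds none of the motifs spelled out above.
Epha3: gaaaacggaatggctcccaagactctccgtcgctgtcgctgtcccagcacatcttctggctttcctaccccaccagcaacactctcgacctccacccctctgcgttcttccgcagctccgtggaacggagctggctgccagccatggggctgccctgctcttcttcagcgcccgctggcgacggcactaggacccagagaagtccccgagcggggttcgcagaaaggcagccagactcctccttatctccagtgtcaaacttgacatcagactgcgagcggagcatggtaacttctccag
Ephb2 was at 35.8 CPM against 0.589 (log2 ratio 5.93, 4.94 to 7.10), which places 97 of its 106 mesenchymal UMIs in this cluster. Efna5, a ligand that EphA3 binds, was at 178 CPM against 24.6 (log2 ratio 2.85, 2.66 to 3.05). Epha3 and Efna5 UMIs occurred together in 163 of the 380 cells, Epha3 alone in 140 and Efna5 alone in 24. The product of the shares of cells with each gene gives 149 cells with both. Efnb2 (log2 ratio 3.13, 2.76 to 3.51) and Epha7 (log2 ratio 2.55, 2.32 to 2.79) were higher as well, and the exception among the Eph receptors was Epha2 (log2 ratio −2.89, −3.81 to −2.11).

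Netrin-1 and both Slits, secreted cues, were higher in the follicle-like cluster too. Ntn1, netrin-1, was at 100.02 CPM (88.5 to 113), and the next mesenchymal cluster, led by Tac1, reached 2.52 CPM (0.519 to 7.36) from 3 UMIs. Of the netrin receptors Neo1, encoding neogenin, was higher in the same cluster (159.8 CPM against 32.6; log2 ratio 2.29, 2.10 to 2.48), and Unc5b was lower (6.64 CPM against 106; log2 ratio −4.00, −4.76 to −3.34). Slit3 stood at 119 CPM against 18.3 (log2 ratio 2.70, 2.46 to 2.93) and Slit2 at 26.6 CPM against 7.66 (log2 ratio 1.79, 1.35 to 2.23). For their receptors the directions parted, Robo2 being higher (log2 ratio 2.33, 1.97 to 2.68) and Robo1 lower (log2 ratio −1.09, −1.41 to −0.79).

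Class 3 semaphorins split in this cluster. Sema3b (110.0 CPM against 11.0; log2 ratio 3.32, 3.04 to 3.60), Sema3f (3.58), Sema3c (3.23) and Sema3a (2.27) were higher. Sema3d (log2 ratio −3.86, −9.18 to −1.34), from 1 UMI, and Sema3e (log2 ratio −2.46, −4.10 to −1.21) were lower. Nrp2, which binds Sema3b, Sema3c and Sema3f, was at 229 CPM against 41.6 (log2 ratio 2.46, 2.30 to 2.62). Sema5a was lower, at 22.9 CPM against 104 (log2 ratio −2.19, −2.58 to −1.82). Cycling markers summed to 455 CPM in this cluster, against 62.1 to 2225 CPM in the other 8. Perivascular markers summed to 135 CPM, with Higd1b and Des at 0. Abcc9 (58.7 CPM), Myh11 (33.6), Kcnj8 (17.7) and Mcam (4.06) were above their levels over all mesenchymal-like cells (12.3, 5.28, 5.50 and 1.83). Cspg4 (12.5 CPM), Rgs5 (5.17) and Notch3 (3.32) were below theirs (27.6, 10.3 and 5.23). The part of cycling and perivascular cells in these differences was not tested.

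Clustering of all cells had divided the follicle-like cells into 285 led by Bmp3 and 100 led by Sfrp2, of which 281 and 97 belong to this cluster. Ntn1 was at 72.0 CPM (61.2 to 84.1) in the former and 204 CPM (168 to 245) in the latter (log2 ratio −1.50, −1.86 to −1.14). Efna5 ran the other way, at 207 CPM (189 to 227) and 54.6 CPM (36.8 to 77.9) (log2 ratio 1.93, 1.39 to 2.51). Of 32 genes measured between these parts, 4 were higher and 2 lower in the Bmp3-led cells, against 8.04% and 4.72% of all genes. Slit2 (1.45) and Sema3a (1.29), each from 6 UMIs in the Sfrp2-led cells, followed Efna5. So did Ephb6, at 15.8 CPM against 5.46, the latter from 3 UMIs. The level intervals of Slit2, Sema3a and Ephb6 overlapped between the parts. Nrp1 followed Ntn1 (−1.62, from 17 and 13 UMIs).

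Odontoblasts make dentin, and 3 mesenchymal clusters were odontoblast-like. Of 16 semaphorins measured, 6 were higher and 4 lower in the Dmp1-led cluster, 7 higher and 3 lower in the Dspp-led cluster, and 0 higher and 8 lower in the Lgals3-led cluster. The last comprised 301 cells with 4 of 8 odontoblast markers, in which 1 of 47 genes was higher and 22 lower (2.34% and 15.8% of all genes). Among 115 cells led by Dmp1, with 7 of 8 odontoblast markers, 10 of 47 genes were higher and 20 lower than in other mesenchymal cells (8.23% and 21.4% of all genes). The median log2 ratio was −0.63 against −0.20. Sema7a was at 26.1 CPM against 1.95 (log2 ratio 3.74, 3.04 to 4.46), Sema4d at 78.4 CPM against 21.8 (log2 ratio 1.85, 1.54 to 2.15) and Sema3e at 24.9 CPM against 7.37 (log2 ratio 1.75, 1.19 to 2.29). Sema4d is known as an inhibitor of bone formation that acts on plexin-B1. Epha2 (log2 ratio 1.82, 1.54 to 2.10), Sema5a (log2 ratio 1.31, 1.13 to 1.49) and Plxna1 (log2 ratio 1.31, 0.95 to 1.66) were higher too. Among the 20 lower genes were Epha3 (−4.85), Efna5 (−2.64), Ephb3 (−2.60), Efna4 (−2.46) and Ephb4 (−2.44) on the log2 scale. Of the neuronal markers Tubb3, a tubulin known from neurons, was at 435 CPM in these cells while Snap25, Nefl, Stmn2 and Elavl4 were at 0.

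Another odontoblast-like set of 23 cells, led by Dspp and Bglap, had Sema3d, Sema3e and Sema7a at greater levels. Sema3d was at 105 CPM against 2.99 (log2 ratio 5.14, 4.44 to 5.81), Sema3e at 116 CPM against 7.17 (log2 ratio 4.02, 3.42 to 4.58) and Sema7a at 59.8 CPM (34.8 to 95.7). Plxna1, the plexin of class 3 and class 6 semaphorins, reached 176 CPM (130.5 to 232) (log2 ratio 2.99, 2.53 to 3.41). Against the Dmp1-led cells the log2 ratio was 3.05 for Sema3d, 2.22 for Sema3e, 1.70 for Plxna1 and 1.19 for Sema7a. Nrp2 went the other way, with 161 UMIs in the Dmp1-led cells and 0 here. In all, 11 of 47 genes were higher and 11 lower than in other mesenchymal cells (9.91% and 18.3% of all genes). With genes above 1% of UMIs left out of the totals 7 were lower, the calls of Sema6c, Efnb2, Robo1 and Sema6a being lost. No share over all genes was taken with these totals. The number of cells limits this set, since 1 UMI equals 3.52 CPM.

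Plxnd1 was higher in another part of the mesenchyme. In 126 cells led by Slc20a2 and Cldn10 it stood at 118 CPM (97.0 to 142) against 15.8 CPM (log2 ratio 2.90, 2.57 to 3.22), next highest being the Fmod-led cluster at 46.5 CPM (37.8 to 56.7). In the Slc20a2-led cells 7 of 11 endothelial markers, Pecam1 and Cdh5 among them, were at 0. Of 47 genes, 5 were higher there (4.19% of all genes) and 10 lower, where 1565 of 12061 genes were lower, and the median log2 ratio was −0.37 against −0.13. By the same count 5 were higher and 10 lower in the Fmod-led cluster (4.35% and 10.8%). The Ube2c-led cycling cluster and the Tac1-led cluster had 0 genes higher than the other mesenchymal cells, and the Lypd1-led cluster 1, against 6.00%, 2.12% and 1.92% of all genes. In the same order 18, 14 and 18 genes were lower, against 11.8%, 14.8% and 11.6%.

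**Figure D4:**
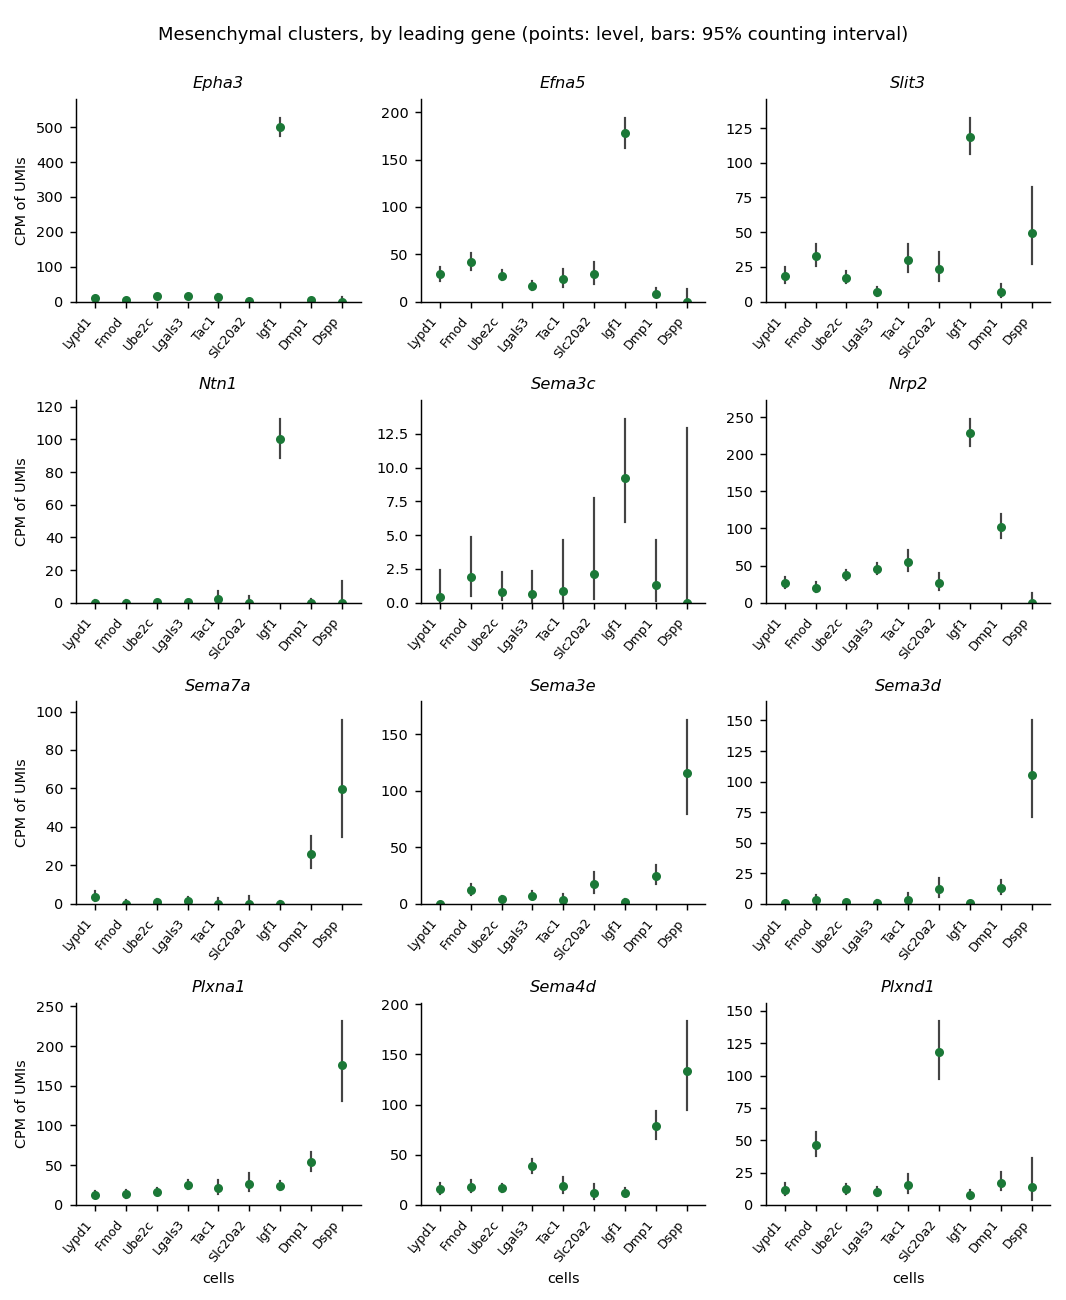
Level in CPM (points) with 95% counting intervals (bars) of 12 guidance genes in the 9 mesenchymal clusters, named by a leading gene; each panel has its own axis from 0. Epha3, Efna5, Slit3, Ntn1, Sema3c and Nrp2 peak in the Igf1-led cluster, Sema7a, Sema3e, Sema3d, Plxna1 and Sema4d in the Dspp- and Dmp1-led clusters, and Plxnd1 in the Slc20a2-led cluster.

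Epithelial clusters differed in receptors as well as in secreted cues. The 191 cells led by Grp, with 3 of 7 markers of proliferative dental epithelium, had 22 of 42 measured genes higher and 8 lower than other epithelial cells, where 29.9% and 8.96% of 10565 genes were. The median log2 ratio was 1.11 for the 42 genes and 0.55 for all genes. With genes above 1% of UMIs left out of the totals the medians were 0.67 and 0.11, with 19 genes higher and 9 lower. No share over all genes was taken with these totals. Amelx took 33.1% of the UMIs of the Slc13a5-led cells and 0.0226% of those of the Grp-led cells.

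Of the 8 Eph receptors measured, 7 were higher in the Grp-led cells. Epha4, a receptor for both ephrin classes, was at 91.4 CPM (79.9 to 104) against 5.51 CPM (log2 ratio 4.05, 3.57 to 4.56), and Epha7 at 106 CPM against 13.4 (log2 ratio 2.99, 2.66 to 3.34). Ephb1 (log2 ratio 4.37, 3.63 to 5.20) and Ephb6, which lacks kinase activity (log2 ratio 5.16, 3.86 to 6.83), had similar ratios. Epha4 and Epha7 were found together in 55 of the 191 cells, Epha4 alone in 21 and Epha7 alone in 43. The product of the shares of cells with each gene gives 39.0 cells with both. Only Ephb3 was lower (log2 ratio −1.42, −1.86 to −1.01). Of the 7 ephrins measured 4 were higher, led by Efna2 (2.34) and Efnb3 (1.85). With genes above 1% of UMIs left out of the totals Epha2 (0.65) and Efna1 (0.68) came under 2-fold, leaving 6 Eph receptors and 3 ephrins higher.

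Secreted cues of the Grp-led cells included Sema3a, the chief repellent of sensory axons, at 39.7 CPM against 1.57 (log2 ratio 4.66, 3.79 to 5.66). Both measured netrins, Ntn5 (3.98) and Ntn4 (1.66), were higher, although Ntn4 came to 0.74 with an equal weight for every cell. Among the plexins, Plxna2 (log2 ratio −4.04, −5.49 to −2.90), Plxna4 (log2 ratio −3.35, −4.07 to −2.71) and Plxnc1 (log2 ratio −1.52, −2.00 to −1.08) were lower, as was Nrp1 (−3.06). Cycling markers summed to 1331 CPM in the Grp-led cells and to 12.6 CPM in the Slc13a5-led cells, and their part in these differences was not tested.

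The 140 epithelial cells led by Dspp and Tgfb3, which no fixed list named, had a share of higher genes near that of all genes. Of 42 genes 3 were higher, against 5.88% of all genes, and 19 lower, against 18.2%, with a median log2 ratio of −0.76 against −0.11. The 3 were Plxnc1 at 148 CPM against 16.5 (log2 ratio 3.17, 2.87 to 3.47), Plxna2 at 93.5 CPM against 13.1 (log2 ratio 2.84, 2.49 to 3.19) and Sema3d at 88.4 CPM against 33.2 (log2 ratio 1.41, 1.14 to 1.69). Plxnc1 was similarly high in 44 shallow, unnamed epithelial cells led by Vwde, at 145 CPM (104 to 198), and so was Sema3d, at 119.9 CPM (82.5 to 168). The promoter of Plxnc1, at chr10:94944796-94945095 on the minus strand, is shown because its level separates this cluster from the Slc13a5-led cells.
Plxnc1: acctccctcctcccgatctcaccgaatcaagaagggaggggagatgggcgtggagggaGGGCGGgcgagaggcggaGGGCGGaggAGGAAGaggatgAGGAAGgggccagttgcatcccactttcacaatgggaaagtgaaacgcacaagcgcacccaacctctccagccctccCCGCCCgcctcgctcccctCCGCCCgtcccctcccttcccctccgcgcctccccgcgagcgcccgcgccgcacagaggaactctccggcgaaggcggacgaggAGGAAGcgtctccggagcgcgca
Capitals mark 3 ETS cores, at −165, −153 and 28, and 4 GC boxes, at −192, −174, −76 and −57.

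In the 260 ameloblast-like cells led by Slc13a5, which secrete enamel matrix, most of these genes were lower. Of 42 genes 4 were higher and 28 lower (3.00% and 40.1% of all genes), with a median log2 ratio of −2.23 against −0.79. With genes above 1% of UMIs left out, 7 were higher and 23 lower, and the medians were −1.55 and −0.10. No share over all genes was taken with these totals. The 4 higher genes were Nrp1, Plxna4, Ephb3 and Sema6c. Nrp1 was at 15.1 CPM against 3.58 (log2 ratio 2.07, 1.35 to 2.84), with 23.3 CPM in free RNA. Plxna4 was at 114 CPM against 32.9 (log2 ratio 1.80, 1.56 to 2.04) and Ephb3 at 77.4 CPM against 30.4 (log2 ratio 1.35, 1.08 to 1.62). Sema6c had a log2 ratio of 1.11, or 0.53 with an equal weight for every cell. The other epithelial cells include 43 led by Atf3, which also raised 5 of 8 ameloblast markers. Neuropilins summed to 23.8 CPM in the Atf3-led and 15.6 CPM in the Slc13a5-led cells, so higher Nrp1 is not shown to be particular to the latter.

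Several genes higher in the Grp-led cells had few UMIs or none in the Slc13a5-led cells. Of 39 genes measured between these clusters, 25 were lower in the Slc13a5-led cells and 7 higher, against 46.8% and 8.03% of all genes. The median log2 ratio was −2.40 against −0.91, and without genes above 1% of UMIs in the totals the latter became −0.12. Epha4 gave 230 UMIs in the Grp-led and 1 in the Slc13a5-led cells, a log2 ratio of −8.41 between these clusters (−13.72 to −5.92). Ephb1, Sema3a, Sema3b and Ephb6 had 116, 100, 68 and 59 UMIs in the Grp-led cells and 0 here. Plxnc1, high in the Dspp-led cells, was at 3.23 CPM (1.67 to 5.63), a log2 ratio of −5.52 against them. In that comparison 9 of 24 genes were lower and 3 higher, against 17.1% and 4.5% of all genes. Sema5a ran opposite, at 67.9 CPM (58.1 to 78.9) in the Grp-led, 199 CPM (180.3 to 219) in the Dspp-led and 206 CPM (191 to 221) in the Slc13a5-led cells, the last pair with overlapping intervals. Plxna4 took the levels 7.94 CPM (4.85 to 12.3), 63.0 CPM (52.8 to 74.6) and 114 CPM (104 to 126) in the same clusters, none overlapping.

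The 90 epithelial cells led by Enpp2 and Tnc, which no list named, held 24 of the 40 epithelial UMIs of Plxnd1, at 29.0 CPM against 1.72 (log2 ratio 4.08, 3.10 to 5.09). Of the 11 endothelial markers 6 were at 0 in them, Pecam1, Cdh5 and Kdr among these. Ntn4 was at 58.0 CPM against 9.98 (log2 ratio 2.54, 2.00 to 3.05) and Nrp2 at 37.4 CPM against 7.51 (log2 ratio 2.32, 1.66 to 2.95). Plxna4 was lower, at 3.62 CPM against 68.0 (log2 ratio −4.23, −6.51 to −2.68). In total 15 of 42 genes were higher and 8 lower (18.1% and 8.59% of all genes), with a median of 0.58 against 0.38. With genes above 1% of UMIs left out of the totals, 9 were higher and 11 lower, and the medians were 0.28 and 0.07. No share over all genes was taken with these totals.

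**Figure D5:**
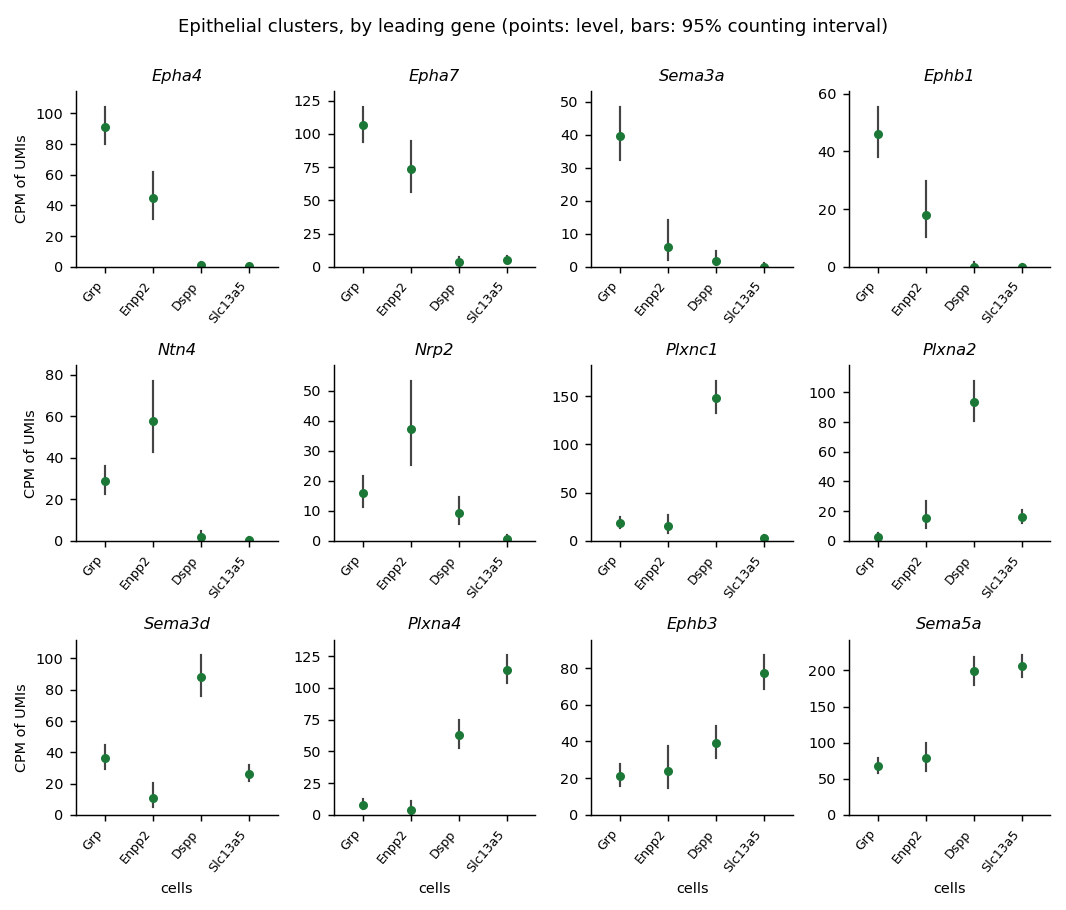
Level in CPM (points) with 95% counting intervals (bars) of 12 guidance genes in the 4 largest epithelial clusters, named by a leading gene; each panel has its own axis from 0. Epha4, Epha7, Sema3a and Ephb1 are highest in the Grp-led cells, Ntn4 and Nrp2 in the Enpp2-led cells, Plxnc1, Plxna2 and Sema3d in the Dspp-led cells, and Plxna4 and Ephb3 in the Slc13a5-led cells.

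Set side by side, known ligands and receptors were highest in different classes or clusters for some pairs and higher in the same class or cluster for others. Sema7a was highest in endothelial-like cells at 71.8 CPM (49.1 to 101), where its receptor gene Plxnc1 had 0 UMIs. In the Dmp1-led odontoblast-like cells Sema7a was at 26.1 CPM (18.7 to 35.4), below the Dspp-led ones, and Plxnc1 had 0 UMIs. By class, Plxnc1 was highest in neutrophil-like cells at 45.8 CPM (31.3 to 64.6), with an interval overlapping that of epithelium. In the Dspp-led epithelial cells Plxnc1 was at 148 CPM (132 to 165), and Sema7a gave 1 UMI there. Among mesenchymal clusters Sema3e was highest in the Dspp-led odontoblast-like cells at 116 CPM (79.8 to 163), whereas its receptor gene Plxnd1 was at 14.1 CPM (3.83 to 36.0) there, 118 CPM (97.0 to 142) in the Slc20a2-led mesenchyme and 404 CPM (347 to 468) in endothelial-like cells. Sema3g and Nrp2, by contrast, were both higher in endothelial-like cells, and Epha3 and Efna5 both in the follicle-like cluster. Robo1, a Slit receptor, was detected in all 9 mesenchymal clusters, from 31.6 CPM (14.5 to 60.1) in the Dspp-led to 110.2 CPM (96.4 to 125) in the Fmod-led cluster. RNA levels of a pair do not show that its proteins met.

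Other genes of these pathways, 51 in a fixed list of receptors and signalling partners, differed in both directions. In epithelium against mesenchyme 8 of 43 measured were higher and 18 lower, against 10.5% and 20.1% of all genes, and their median log2 ratio of −0.23 was near the −0.29 of all genes. The steepest were Flrt3, a ligand of UNC5 receptors, at 2.46 CPM against 44.0 (log2 ratio −4.16, −4.79 to −3.58), Unc5d (log2 ratio −3.90, −5.80 to −2.50), Dpysl5 (log2 ratio 3.83, 2.76 to 5.10) and Dpysl3 (log2 ratio −3.37, −3.66 to −3.10). Dpysl genes encode collapsin response mediators, which act downstream of Sema3a. In the follicle-like cluster 11 of 40 were higher and 12 lower (15.3% and 10.0% of all genes), led by Mical2 (log2 ratio 4.85, 3.74 to 6.16), Unc5c (log2 ratio −4.07, −5.08 to −3.23), Unc5b and Flrt1 (log2 ratio 3.61, 2.57 to 4.73). In endothelial-like cells 14 of 45 were higher and 13 lower (16.8% and 15.3% of all genes), and in the Grp-led epithelial cells 14 of 34 were higher and 4 lower (29.9% and 8.96% of all genes). Dcc, the classical netrin-1 receptor, gave 0 epithelial and 3 mesenchymal UMIs.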

How the data were processed

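Droplet 3′ RNA sequencing of 1 cell suspension, on 2 lanes, was analysed from the single matrix of whole-number UMI counts deposited by the authors, which is unnormalised and covers 6794880 barcodes (median 5785 UMIs in the cells kept). Per the file headers it was written in format 2 by software version 3.0.2; the submitters' processing notes name mm10, R 3.4.1 and Seurat, whose listed version is not used here. The aligner and the annotation used were not given in the sources used here. No column was left unused (0).

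Barcodes with at least 500 genes and at most 20% mitochondrial UMIs were kept (4775). Scrublet's automatic threshold called 1 doublet, so barcodes scoring above 0.15 (122, 2.55%) were removed, as were those with over 5% haemoglobin UMIs outside the erythroid cluster (117, 2.45%). Cells were clustered without the 63 genes, other guidance genes and mitochondrial genes (127 in all), on 2000 variable genes, 30 principal components and 15 neighbours (Leiden resolution 1, then 0.5 within epithelium and mesenchyme, seed 0; scanpy 1.11.5, leidenalg 0.10.2, Python 3.11.15, numpy 2.4.6, scipy 1.17.1, pandas 2.3.3). Clusters were named from fixed marker lists; a tolerance of 1 leading gene of another list, which names 229 cells led by Notum and Plac8 mesenchymal-like, was set after seeing the data.

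Counts were summed per class. Levels carry exact Poisson intervals, log2 ratios conditional binomial ones and shares of cells Clopper-Pearson ones (95%), which cover counting error only; a count of 0 is bounded with 3 UMIs over the group. For shares, cells were thinned to 2000 UMIs, leaving out 694 shallower ones. With 1 sample no test was made. Free RNA was read from 1465970 barcodes of 1 to 20 UMIs. Up to 8 genes per direction and comparison were named by size of ratio, and further members, Neo1 and Dcc after their values were seen. The scripts were tested on simulated data. The alternatives were other cell filters, totals without genes above 1%, equal cell weights, 100 UMIs, 3-fold, resolution 2, doublets left in and, added after seeing the data, the interval rule and leaving out the Notum- and Plac8-led cells. All 63 genes matched GENCODE and 55 the RefSeq promoter table. The genes and lists were chosen with earlier results of these data known.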

Additional observations from a re-analysis of the deposited data

How the results depend on the processing

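No paired analysis was possible because 1 matrix holds both lanes with no map from barcodes to lanes, and leaving out a replicate could not be run for the same reason. The counts of higher and lower genes in epithelium against mesenchyme, in endothelial-like and in macrophage- or monocyte-like cells stayed within 1.5 times under every alternative run. At 3-fold, higher genes went from 10 to 5 in the Dmp1-led, 11 to 6 in the mesenchymal Dspp-led, 5 to 2 in both the Slc20a2-led and Fmod-led, 1 to 0 in both the Lgals3-led and Lypd1-led, 15 to 8 in the Enpp2-led and 4 to 2 in the Slc13a5-led cells, and lower genes from 11 to 7 in the mesenchymal Dspp-led, 22 to 11 in the Lgals3-led, 14 to 7 in the Tac1-led, 18 to 9 in the Ube2c-led, 10 to 3 in the Slc20a2-led, 19 to 12 in the epithelial Dspp-led, 8 to 3 in the Enpp2-led and 8 to 3 in the Grp-led cells. Summed over clusters, 3-fold gave 33 higher (57 at 2-fold) and 81 lower (133) in mesenchyme, and 35 (53) and 53 (88) in epithelium. Fewer genes of any kind pass 3-fold than 2-fold. Shares over all genes are given at 2-fold, with at least 30 UMIs and every gene in the totals. Under the interval rule they are given for endothelial-like cells alone. The counts in this section have no such share beside them. With at least 100 UMIs, higher genes numbered 2 in both the Slc20a2-led and Fmod-led, 0 in the Lypd1-led, 8 in the Enpp2-led and 14 in the Grp-led cells and 34 over the epithelial clusters, and lower genes 12 in the Lgals3-led, 11 in the Ube2c-led, 10 in the epithelial Dspp-led and 18 in the Slc13a5-led cells; fewer genes enter at that minimum. With an interval on one side of 0, 6 genes were lower in the Slc20a2-led cells. Without genes above 1% of UMIs, 9 were higher in the Enpp2-led, 7 in the Slc13a5-led and 2 in the Atf3-led cells (1 with them), and 7 were lower in the mesenchymal Dspp-led cells. Equal cell weights gave 2 higher genes in the Lgals3-led and a minimum of 1000 detected genes 1 in the Tac1-led cells. Of the single log2 ratios set against the alternatives, 2952 kept their call, 296 lost it and 5 changed sign. The ratio itself was not recomputed at 3-fold (296 kept, 149 lost), at 100 UMIs (332 kept) or under the interval rule (400 kept, 45 lost). No sign could change there, and at 100 UMIs every gene still measured keeps its call. With equal cell weights those that changed sign were Plxna4 in endothelial-like cells (0.36), Efna1 in Atf3-led (0.014), Nrp1 in Enpp2-led (0.017) and Sema4b in Vwde-led epithelial cells (0.17). With a mitochondrial limit of 10% it was Plxna3 in Vwde-led cells (0.52). The cause was not tested. Endothelial-like cells (74) and Dspp-led odontoblast-like cells (23) limit the depth most.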
